A study of Mus musculus with 16 samples.

Results

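The immediate early response genes described here are 10 genes, Egr1, Egr2, Fos, Fosb, Junb, Nr4a1, Nr4a3, Ier3, Atf3 and Errfi1, out of 22180 genes measured in mouse myocardium. They were taken by name from the array's annotation, as probe sets whose only gene symbol is one of these names, and all 10 were measured, with 1 probe set each. These names and the gene lists below were chosen with earlier results of these data known. Their counts beside shares of all genes are therefore descriptions and no test. RNA came from 16 mice, 4 in each of 4 groups, at 32 weeks of age and 7 hours after lights on, and all carried the C57Bl/6J strain background. The groups were wild type (WT) on standard chow (SC), WT on a high-fat diet (HFD), Clock delta 19/delta 19 (Clock) on SC and Clock on HFD, each diet having been fed for 24 weeks. The labels call the Clock animals transgenic and name no promoter or cell type that would limit the change to some cells, and whole myocardium was taken. Every value below is a log2 value relative to that probe set's median over the 16 hearts, so 0 is the middle heart, positive is higher, and levels of different genes cannot be compared.

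Immediate early genes are switched on within minutes of a stimulus, without new protein synthesis, by factors already present in the cell, mainly serum response factor (SRF) with its ELK partners and CREB once their kinases are active. Most encode transcription factors that then change a second wave of genes, and others feed back on the signal itself. In the heart they respond to stretch, adrenergic drive, growth factors and ischaemia, and also to handling of the tissue, and their transcripts are short-lived. CLOCK is a transcription factor of the circadian clock, and the delta 19 protein binds DNA with BMAL1 but activates poorly.

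As a check of the labels, Dbp, a direct target of CLOCK and BMAL1, lay between 0.37 and 2.45 in the 8 WT hearts and between -0.62 and -0.37 in the 8 Clock hearts, with no overlap. The Clock transcript itself averaged -0.08 in WT on SC, -0.40 in WT on HFD, 0.08 in Clock on SC and 0.02 in Clock on HFD (n = 4 each), which does not check a mutation that alters the protein. All 16 hearts correlated better with the other hearts of their own group than with the rest, the Clock SC replicate 4 by the smallest margin. Array medians ranged from -0.0015 to 0.0028. Since each probe set was centred, the labelled tissue could not be checked against the levels of its markers.

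The promoters of 5 members are shown because Egr2 and Ier3 are the members with calls below, Nr4a1 and Nr4a3 have the largest diet differences, and Errfi1 holds the full cAMP response element. Each window runs from 250 bases before to 50 bases after a transcript start in RefSeq (GRCm38.p6): Egr2, the third of its 5 annotated starts, chr10:67537619-67537918, plus strand; Ier3, chr17:35821463-35821762, plus strand; Nr4a1, chr15:101266596-101266895, plus strand; Nr4a3, chr4:48045055-48045354, plus strand; Errfi1, the second of 2 starts, chr4:150854820-150855119, plus strand. Capitals mark matches on either strand to any of 6 motifs: the cAMP response element (CRE) TGACGTCA, the TGACG core of it, here called the short CRE, the AP-1 site TGANTCA, the E-box CACGTG, the EGR site GCGNGGGCG, and the CArG box, which SRF binds.
Egr2: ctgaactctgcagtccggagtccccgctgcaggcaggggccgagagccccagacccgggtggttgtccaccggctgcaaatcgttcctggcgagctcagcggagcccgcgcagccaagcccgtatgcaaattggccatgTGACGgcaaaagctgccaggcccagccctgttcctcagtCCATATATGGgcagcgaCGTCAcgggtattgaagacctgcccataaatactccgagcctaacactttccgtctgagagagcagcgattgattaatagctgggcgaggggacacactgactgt
Ier3: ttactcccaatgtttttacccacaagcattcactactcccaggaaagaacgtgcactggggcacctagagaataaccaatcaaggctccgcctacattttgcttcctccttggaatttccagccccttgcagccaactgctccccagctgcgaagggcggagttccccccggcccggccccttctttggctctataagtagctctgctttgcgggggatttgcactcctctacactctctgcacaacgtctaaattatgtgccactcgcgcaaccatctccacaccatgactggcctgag
Nr4a1: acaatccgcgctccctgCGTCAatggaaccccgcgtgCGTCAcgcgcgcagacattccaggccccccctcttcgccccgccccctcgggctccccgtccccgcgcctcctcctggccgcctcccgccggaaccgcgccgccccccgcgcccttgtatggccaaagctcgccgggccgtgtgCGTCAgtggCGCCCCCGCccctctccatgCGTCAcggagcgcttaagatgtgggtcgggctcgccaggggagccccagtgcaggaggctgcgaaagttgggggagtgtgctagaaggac
Nr4a3: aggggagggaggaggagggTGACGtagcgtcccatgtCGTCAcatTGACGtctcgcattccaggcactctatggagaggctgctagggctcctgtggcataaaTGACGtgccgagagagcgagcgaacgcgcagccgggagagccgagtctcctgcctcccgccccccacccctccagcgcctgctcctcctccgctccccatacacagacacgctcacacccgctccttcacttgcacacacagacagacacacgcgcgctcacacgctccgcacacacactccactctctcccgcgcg
Errfi1: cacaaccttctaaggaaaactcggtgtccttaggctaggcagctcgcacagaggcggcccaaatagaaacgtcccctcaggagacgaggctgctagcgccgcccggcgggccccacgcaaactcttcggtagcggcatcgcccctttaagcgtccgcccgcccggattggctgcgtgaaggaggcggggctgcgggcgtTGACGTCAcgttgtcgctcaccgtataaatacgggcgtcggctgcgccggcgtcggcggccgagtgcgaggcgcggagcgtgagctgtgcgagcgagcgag

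**Figure D1:**
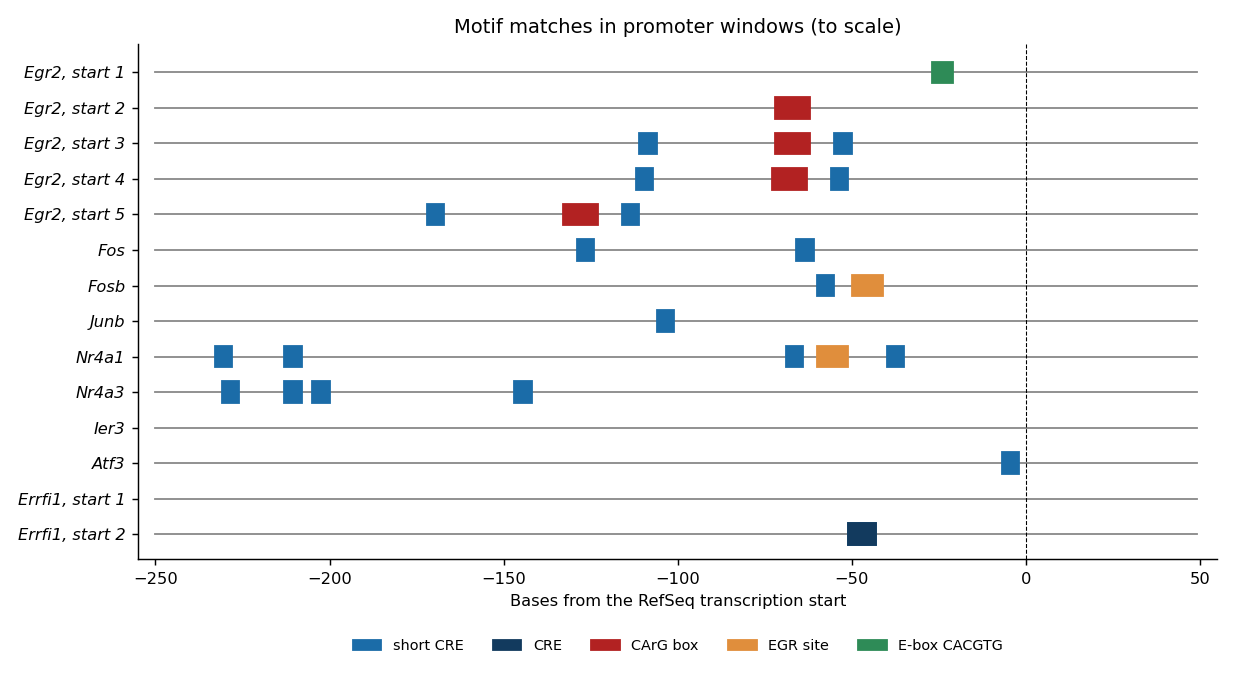
Motif matches in 14 promoter windows of 9 members, drawn to scale by distance in bases from the transcript start, with a colour for each motif. Among these 9 members, short CRE matches fall in windows of 8, and the CArG box matches all lie in Egr2 windows. The windows of Ier3 and of the first Errfi1 start hold no match. In Errfi1 the full CRE covers 2 short ones. The Egr1 promoter was not examined.

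Of the 10 members, 9 were matched to the RefSeq promoter table, with 14 windows in all. Member windows on chromosome 18, where Egr1 lies, were left out of the search, so the Egr1 promoter was not examined. The short CRE occurred in 10 of 14 windows, against 20.8% of all 32851 windows in the table. Of these 10 windows, 3 are overlapping Egr2 windows that share the same 2 matches. Counting a member with a match in any of its windows, 8 of 9 members had it, for which the share of windows is no like measure. Nr4a1 and Nr4a3 held 4 short CRE matches each, and their sequences above show them spread from base -233 to base -36 in Nr4a1 and from base -231 to base -143 in Nr4a3, with the start itself counted as base 0. The full CRE, whose letters contain the short CRE on both strands, was found in the second Errfi1 window and in 1.79% of all windows. The CArG box was found in 4 of the 5 Egr2 windows, 3 of which overlap and share 1 match, and in 1.63% of all windows, and the E-box, the element that CLOCK and BMAL1 bind, in the first Egr2 window and in 7.15% of all. The EGR site was found in Fosb and Nr4a1 (5.55% of all windows), and the AP-1 site in 0 of 14 (7.81% of all). These are letter matches and describe the windows only, and the windows behind the shares were not matched to the members' windows for GC content.

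Egr1 and Egr2 encode zinc finger transcription factors of the early growth response family. Egr2 read -0.12, 0.00, 0.08 and 0.14 in the WT hearts on SC and -0.49, -0.49, -0.17 and -0.73 in the WT hearts on HFD. In the Clock hearts it read 0.08, 0.08, 0.23 and 0.23 on SC and -0.10, 0.00, 0.15 and -0.04 on HFD. All 4 WT HFD hearts thus lay below the 12 hearts of the other groups. Egr2 was lower on HFD in WT by 0.49 ± 0.09 on the log2 scale (SE of the fit, n = 4 per group; 1.41-fold, adjusted p = 0.0341) and higher in Clock than in WT on HFD by 0.47 ± 0.09 (1.39-fold, adjusted p = 0.0140). Egr1 had the same order of group means, 0.02 in WT on SC, -0.29 in WT on HFD, 0.16 in Clock on SC and -0.16 in Clock on HFD, but its values overlapped. Its 4 values were 0.14, 0.00, 0.00 and -0.06 in WT on SC, -0.46, -0.16, 0.07 and -0.62 in WT on HFD, -0.04, 0.20, 0.21 and 0.25 in Clock on SC, and -0.79, 0.13, 0.20 and -0.18 in Clock on HFD. The HFD hearts spanned a wider range than the SC hearts in both genotypes, and the diet difference in Egr1 was close in WT (-0.31 ± 0.18, adjusted p = 0.576) and in Clock (-0.32 ± 0.18, adjusted p = 0.687), passing in neither.

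The calls for Egr2 depended on single hearts and on the fit. The diet call in WT ended with a trended robust variance (Egr2 adjusted p = 0.0667) and with only the arrays compared (0.175), and the genotype call on HFD ended with only the arrays compared (0.0549). The diet call also ended when any of replicates 2, 3 and 4 of WT on SC, or of replicates 1, 2 and 4 of WT on HFD, was left out, with an adjusted p of at most 0.114 for Egr2, and the genotype call without Clock HFD replicate 3 (Egr2 adjusted p = 0.0558).

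Fos, Fosb and Junb encode subunits of AP-1, a dimeric transcription factor, and Atf3 encodes a stress-induced factor that pairs with AP-1 proteins and often represses. Atf3 read 0.68, 0.77, 0.39 and -0.04 in WT on SC, -0.93, -0.80, -0.07 and -0.88 in WT on HFD, -0.12, 1.18, 0.04 and 1.07 in Clock on SC, and -0.56, 0.18, 1.27 and -0.24 in Clock on HFD. The WT groups did not overlap, though only narrowly (-0.04 against -0.07), and the Clock groups overlapped. The differences were -1.12 ± 0.36 for HFD against SC in WT (adjusted p = 0.222) and 0.84 ± 0.36 for Clock against WT on HFD (adjusted p = 0.313), neither past the threshold. Fos read 0.14, -0.10, -0.73 and -0.48 in WT on SC, -0.84, -0.33, 0.09 and -0.61 in WT on HFD, 0.11, 0.22, 0.25 and 0.13 in Clock on SC, and -1.23, 0.46, 0.74 and -0.09 in Clock on HFD. Its 4 Clock SC hearts lay between 0.11 and 0.25, while the Clock HFD hearts held both the lowest and the highest of the 16 values. Fosb ranged over the 16 hearts from -0.41 to 0.61 and Junb from -0.34 to 0.35. Fos, Fosb and Junb passed in none of the 7 comparisons, with differences between -0.29 and 0.47.

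Nr4a1 and Nr4a3 encode orphan nuclear receptors that act without a known ligand and are controlled mainly by how much is made. Nr4a1 read 0.51, 0.33, 0.32 and -0.02 in WT on SC and -1.73, -0.99, -0.12 and -2.29 in WT on HFD. In Clock it read -0.35, 0.14, 0.02 and 0.57 on SC and -1.43, 0.04, 0.24 and -0.96 on HFD. The WT groups did not overlap, WT HFD replicate 3 lying just below the lowest SC heart, and the Clock HFD hearts fell into a pair near 0 and a pair near or below -1. The diet difference for Nr4a1 was -1.56 ± 0.40 in WT (2.95-fold lower on HFD, adjusted p = 0.110) and -0.62 ± 0.40 in Clock (adjusted p = 0.748). Without WT HFD replicate 3 the WT difference for Nr4a1 was -1.95 and passed (adjusted p = 0.0412), so 1 heart decided on which side of the threshold it fell.

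Nr4a3 varied most of the 10. It read 0.58, 1.16, 0.85 and 0.05 in WT on SC, -1.80, -1.10, 0.20 and -2.59 in WT on HFD, -1.04, 0.59, -0.24 and 1.16 in Clock on SC, and -0.78, -0.05, 0.68 and -1.83 in Clock on HFD. Of the WT HFD hearts 3 lay below all WT SC hearts and replicate 3 lay above the lowest of them. The diet difference in WT was the largest of any member, -1.99 ± 0.59 (3.96-fold lower on HFD), with an adjusted p of 0.173 and a 95% interval from -3.23 to -0.74.

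Ier3, which encodes a small protein induced by growth factors and stress that affects cell survival and ERK signalling, was the 1 member whose group mean was highest, not lowest, in WT on HFD. It read 0.06, 0.26, -0.03 and -0.05 in WT on SC and 0.35, 0.36, 0.58 and 0.21 in WT on HFD. In Clock it read 0.03, 0.04, -0.15 and -0.30 on SC and -0.60, -0.19, -0.22 and -0.07 on HFD. All 4 WT HFD hearts were above all 8 Clock hearts. Ier3 was lower in Clock than in WT on HFD by 0.64 ± 0.11 (1.56-fold, adjusted p = 0.00539, no overlap). On SC the same difference was -0.15 ± 0.11 (adjusted p = 0.739). The diet difference was 0.31 ± 0.11 in WT (adjusted p = 0.272) and -0.18 ± 0.11 in Clock (adjusted p = 0.735). The HFD genotype call for Ier3 held in every setting run, with adjusted p between 0.00348 and 0.0221.

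Errfi1 encodes MIG6, an inhibitor that binds the epidermal growth factor receptor (EGFR) and its relatives after they signal. It read 0.01, 0.10, 0.33 and 0.06 in WT on SC, -0.90, -0.46, -0.16 and -1.67 in WT on HFD, -0.64, -0.01, -0.13 and 0.75 in Clock on SC, and 0.30, 0.05, 0.01 and -0.44 in Clock on HFD. The WT groups did not overlap, and the Clock groups overlapped widely. The differences in Errfi1 were -0.92 ± 0.29 for HFD against SC in WT (adjusted p = 0.200), -0.01 ± 0.29 in Clock (adjusted p = 0.998) and 0.78 ± 0.29 for Clock against WT on HFD (adjusted p = 0.219).

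**Figure D2:**
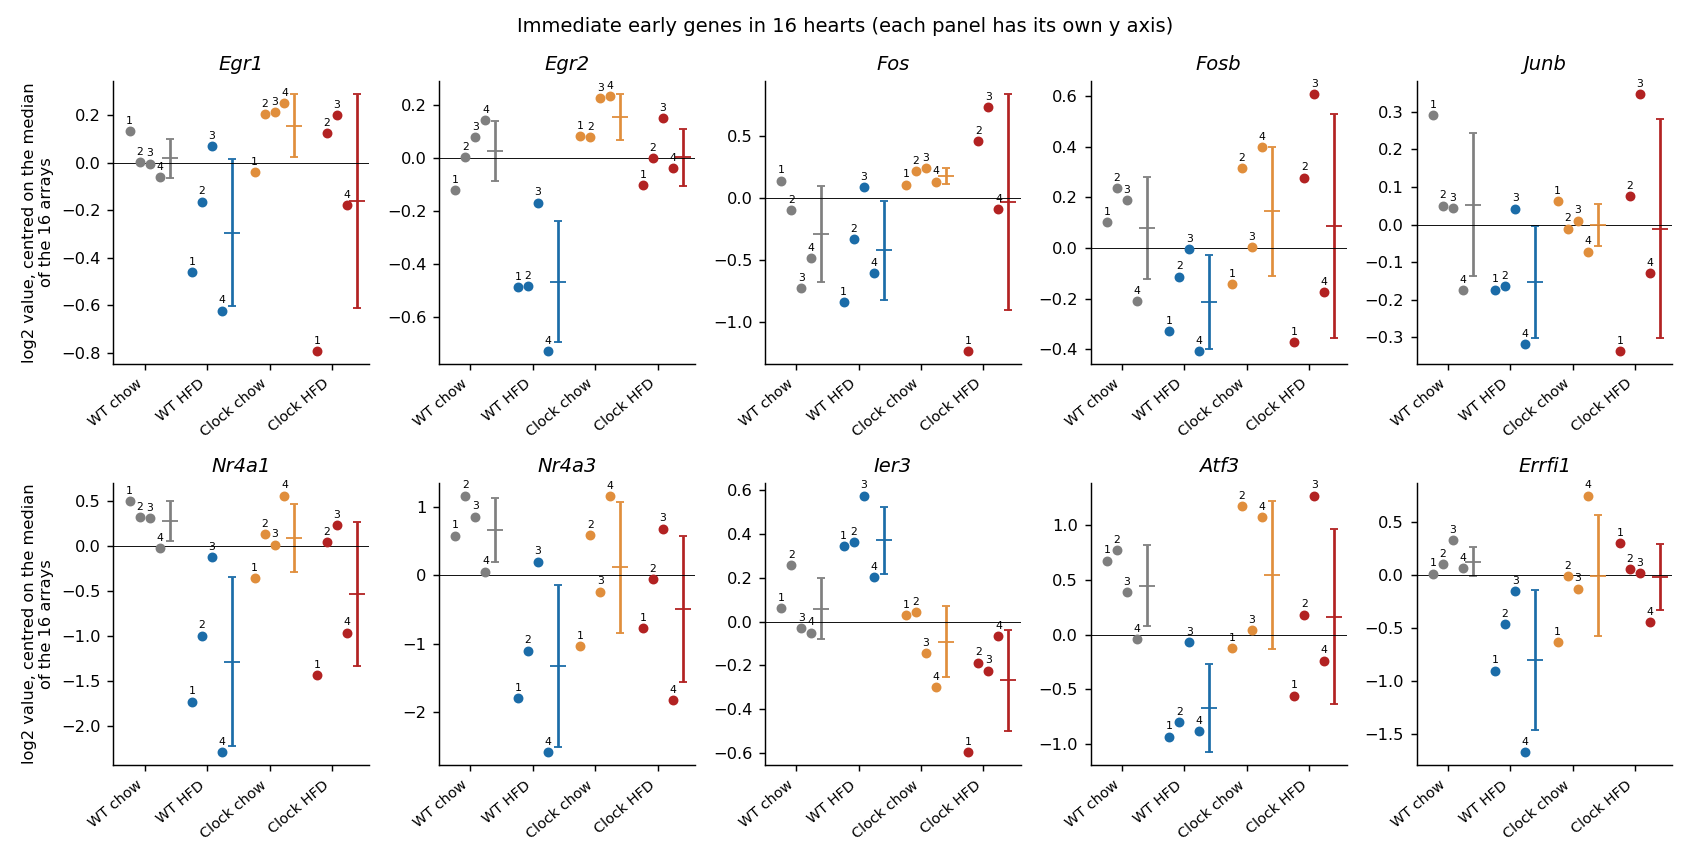
Log2 value of each member in each heart (points) with the group mean (line), 4 hearts per group, 1 panel per gene, each with its own y axis. The group mean is lowest in WT on HFD for 9 of the 10 genes, while Ier3 is highest there.

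On HFD, 9 of 10 members had higher means in Clock than in WT hearts, as did 50.2% of all genes, and Ier3 had a lower one. Egr2 was called higher and Ier3 lower, at an adjusted p under 0.05 over all genes. These 2 calls among 10 members compare with 1.9% of all genes called in this comparison, and 4 members were below an unadjusted p of 0.05 (13.5% of all genes). The groups did not overlap for 2 members, against 8.89% of all genes. The members' median difference was 0.43, against 0.00 over all genes. The 7 other members with higher means that did not pass, besides Egr1 at 0.13 ± 0.18, lay between 0.14 ± 0.12 for Junb and 0.84 ± 0.36 for Atf3.

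In WT hearts, 9 of 10 members had lower means on HFD than on SC, as did 51.2% of all genes, with a median difference of -0.40 against 0.00 over all genes. Egr2 was the 1 member called, where 0.352% of all genes were called, and 6 members were below an unadjusted p of 0.05 (10.7% of all genes). Of these 6, Ier3 was higher on HFD and the others were lower. For 4 members, Egr2, Nr4a1, Atf3 and Errfi1, all HFD hearts lay below all SC hearts, against 2.5% of all genes. This comparison and the genotype comparison on HFD both use the 4 WT HFD hearts, in which 9 of 10 members had their lowest group mean, so they are not independent of each other. The share of all genes with their lowest group mean in WT on HFD was not computed.

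In the other comparisons within 1 diet or genotype the differences do not use the WT HFD hearts, though the pooled spread in their tests does. On SC, 5 had higher and 5 lower means in Clock than in WT, from -0.55 ± 0.59 for Nr4a3 to 0.47 ± 0.32 for Fos. Of the 10, 0 were called by limma, where 0.491% of all genes were, and 0 were below an unadjusted p of 0.05 (9.77% of all genes). In Clock hearts, all 10 means were lower on HFD than on SC, as were 50% of all genes, from -0.62 ± 0.40 for Nr4a1 to -0.01 ± 0.12 for Junb, and the sign turned for Fos, Fosb, Junb or Errfi1 when single arrays were left out and for Errfi1 with array weights or a repeated quantile normalization. Again limma called 0 of the 10 (0.0902% of all genes), and 0 were below an unadjusted p of 0.05 (8.42% of all genes).

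Whether the diet difference itself differed between the genotypes was tested with the interaction, for which limma called 0 of the 10 and 0% of all genes, and 3 members were below an unadjusted p of 0.05 (5.06% of all genes). These were Ier3 (-0.49 ± 0.16, adjusted p = 0.809), Egr2 (0.34 ± 0.13, adjusted p = 0.935) and Errfi1 (0.91 ± 0.41, adjusted p = 0.980). A different diet response in Clock and WT hearts was therefore not shown for any member. For Nr4a3 the interval of the interaction ran from -0.38 to 3.13.

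Averaged over both diets, Egr2 was higher in Clock (0.30 ± 0.07, adjusted p = 0.0160) and Ier3 lower (-0.40 ± 0.08, adjusted p = 0.00783), 2 calls where 3.88% of all genes were called. Averaged over both genotypes, Egr2 was lower on HFD (-0.32 ± 0.07, adjusted p = 0.0232), 1 call where 1.54% of all genes were called, and Nr4a1 missed the threshold (-1.09 ± 0.28, adjusted p = 0.0673). Without WT HFD replicate 3 the averaged diet difference of Nr4a1 was -1.28 (adjusted p = 0.0185), and without Clock HFD replicate 1 the averaged genotype difference of Fos was 0.63 (adjusted p = 0.0345) in place of 0.43 (adjusted p = 0.364).

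**Figure D3:**
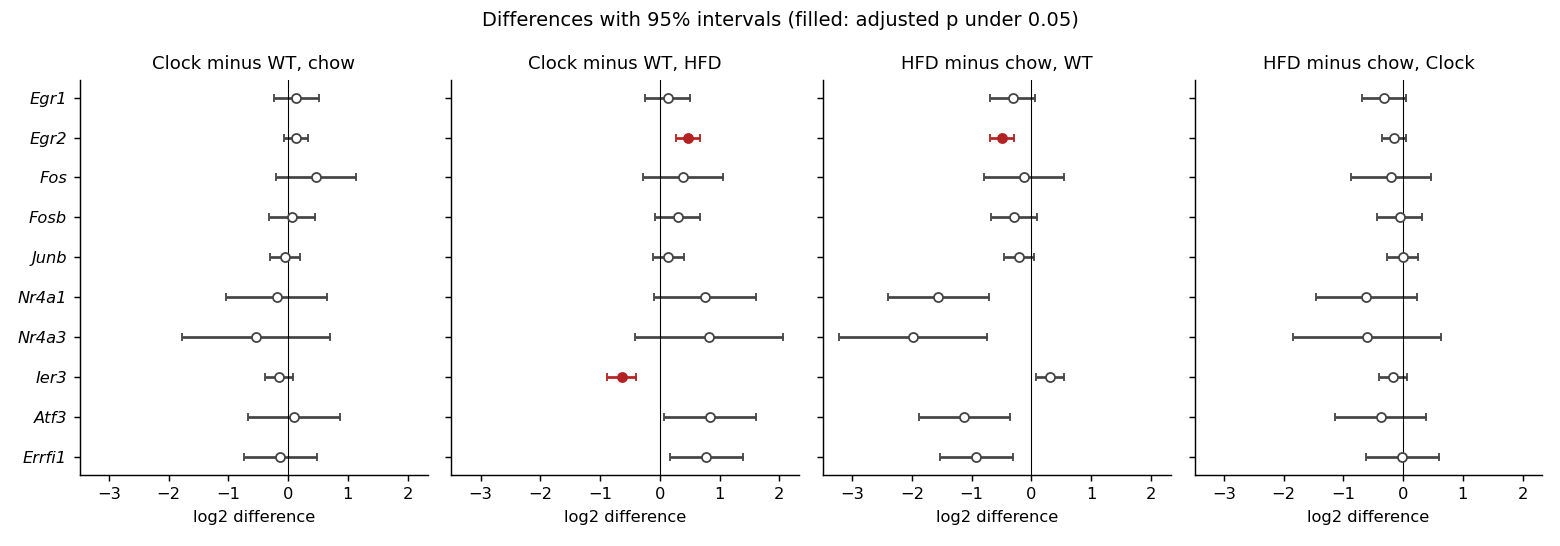
Difference of each member with its 95% interval from the fit, in log2 units, 1 panel per comparison, filled where the adjusted p over all genes is under 0.05. Egr2 and Ier3 are filled in the genotype comparison on HFD, Egr2 is filled for HFD against SC in WT, and the widest intervals belong to Nr4a3.

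The spread between mice of one group set apart most of these genes from the rest of the array. The within-group SD was 0.96 for Nr4a3, 9.79 times the median SD of all genes (0.098), and 0.65 for Nr4a1, 0.59 for Atf3, 0.52 for Fos and 0.47 for Errfi1. Even for Errfi1, the least variable of these 5, 99.9% of genes had a smaller SD. Egr1 (0.28) and Fosb (0.29) varied about 2.9 and 3.0 times the median. The members with calls were among the 3 steadiest, Egr2 at 0.15 (86.2% of genes had a smaller SD) and Ier3 at 0.17 (94.6%), with Junb at 0.19 between them and the others. The largest of the 4 group SDs was in an HFD group for all 10 members, Clock on HFD for 6 and WT on HFD for 4. Over all genes the largest SD was in Clock on HFD for 19.4% and in WT on HFD for 25.4%. In the tests each gene has a single pooled spread, although its groups differ in theirs.

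**Figure D4:**
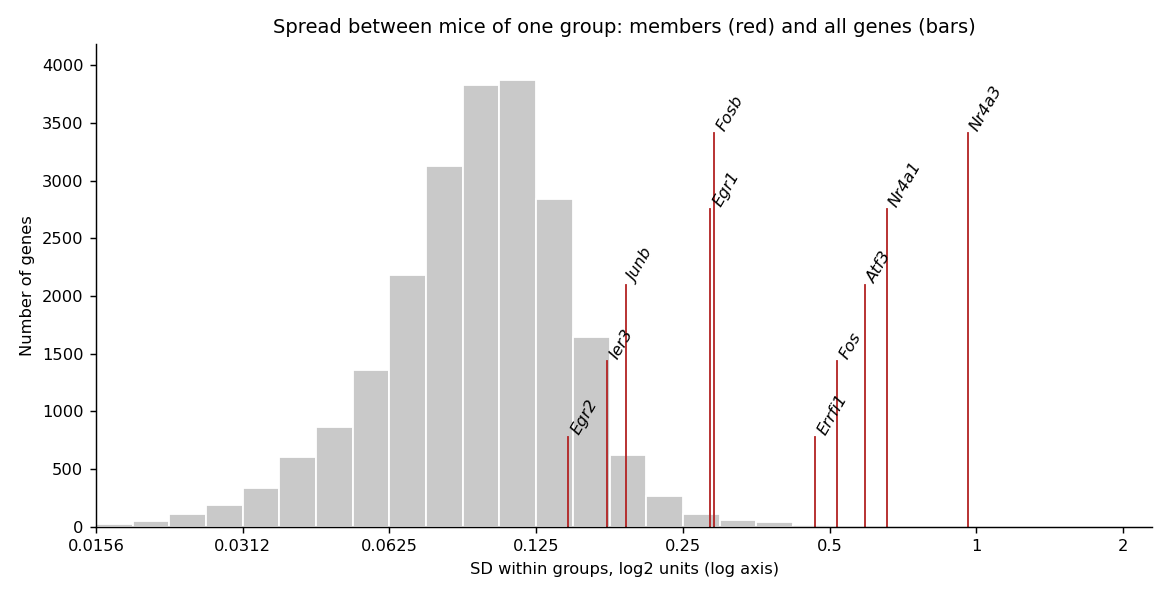
Within-group SD of all 22180 genes (bars, number of genes, on a log axis in log2 units) with the 10 members as red lines, whose heights only separate the names. Egr2 lies nearest to the bulk of the genes and Nr4a3 at the far right.

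The members varied together from mouse to mouse. The mean of the 10 members read 0.24, 0.28, 0.14 and -0.08 in the WT SC hearts, -0.73, -0.42, 0.05 and -0.99 in the WT HFD hearts, -0.20, 0.27, 0.03 and 0.42 in the Clock SC hearts, and -0.59, 0.10, 0.40 and -0.41 in the Clock HFD hearts. WT HFD replicate 3 was the highest of its group for all 10 members, Ier3 included, and WT HFD replicate 4 the lowest for 8. In Clock on HFD, replicate 3 was highest for 8 members and replicate 1 lowest for 8. In WT on SC replicate 4 was lowest for 7, and in Clock on SC replicate 1 was lowest for 7.

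After the group means were taken out, 44 of the 45 pairs of members correlated above 0 over the 16 hearts, with a median Pearson r of 0.65. Of the 45, 21 passed at an adjusted p under 0.05 for r, 17 for Spearman's rho and 16 for both, by permutation of values within groups (100000 permutations, Benjamini-Hochberg over the 45 pairs). Fosb and Atf3 had the highest r, 0.925 (rho 0.921; permutation p = 8e-05 and 2e-04, adjusted 0.001 and 0.0018), and 0.875 without the 2 hearts farthest from the median of Fosb. Egr1 and Nr4a1 had an r of 0.924 (rho 0.959; permutation p = 2e-05 and 4e-05, adjusted 9e-04 and 0.0018), and 0.947 without the 2 farthest hearts. Egr1 and Fos followed at 0.901 (rho 0.900; permutation p = 0.00061 and 0.00019, adjusted 0.0045 and 0.0018), and 0.792 without the 2 farthest hearts.

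Errfi1, Ier3 and Egr2 passed with the fewest partners. Errfi1 passed with 1 of its 9 partners by either measure, Nr4a3 (r 0.813, rho 0.774; permutation p = 0.0024 and 0.0039, adjusted 0.0093 and 0.012; 0.754 without the 2 farthest hearts), and its r with Fos was 0.0453 (rho 0.200; permutation p = 0.84 and 0.46, adjusted 0.84 and 0.50; 0.293 without the 2 farthest). Leaving out the 2 hearts farthest from the partner's median moved the r of Errfi1 both ways. It rose to 0.777 with Fosb (from 0.470) and to 0.618 with Egr1 (from 0.373), and fell to 0.376 with Nr4a1 (from 0.648). Ier3 passed with 0 of 9 by either measure, although 8 of its 9 values of r were above 0. Egr2 passed with 2 of 9 by r and 0 by rho, and Nr4a1 with 7 by r and 5 by rho. Both genes of each pair were read from the same 16 arrays, and what an array or a heart adds to all genes at once was not tested.

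**Figure D5:**
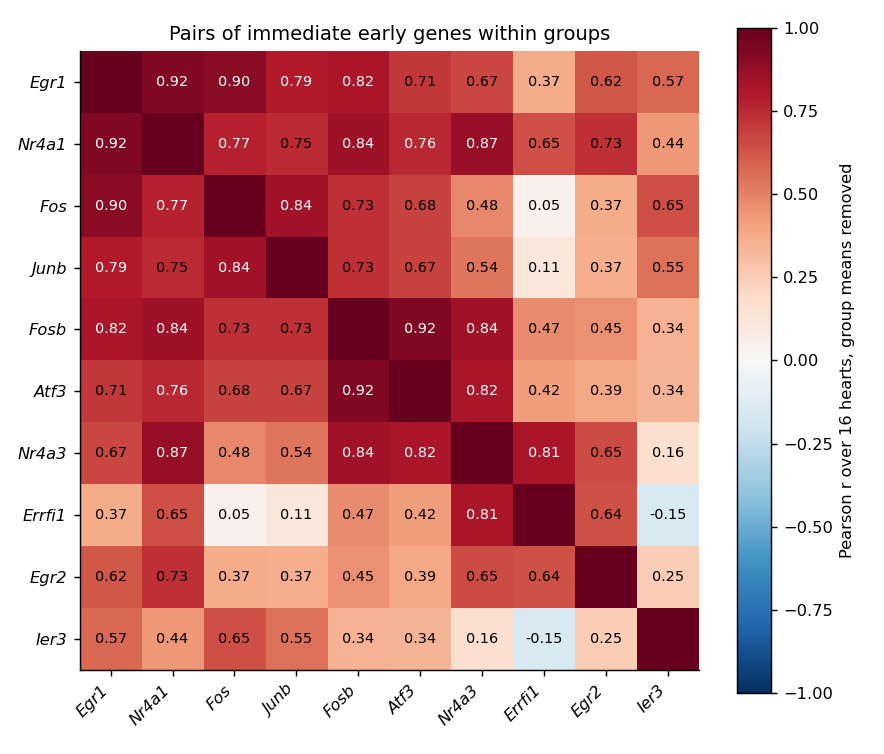
Pearson r for each of the 45 pairs of members over 16 hearts with group means removed, shown as a coloured grid with the value in each cell. Egr1, Fos, Fosb, Junb, Nr4a1, Nr4a3 and Atf3 form a block of mostly high values, in which Nr4a3 is lower with Fos (0.48) and Junb (0.54). The Ier3 and Errfi1 rows are palest, although Errfi1 reaches 0.81 with Nr4a3.

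The genes outside the list whose within-group pattern over the 16 hearts was most like the members' mean were Apold1 (r 0.963), Dusp1 (0.947), Btg2 (0.947), Klf2 (0.922), Otud1 (0.914), Sik1 (0.906), Ptgs2 (0.901) and Ccnl1 (0.900). They are the highest of 19373 candidates, of which 5% had an r above 0.497, and were picked for this likeness, so no test is given. Predicted genes (symbols of Gm and digits, ending in Rik, or starting with LOC) were not among the candidates. Apold1 averaged 0.24 ± 0.19 (SD, n = 4) in WT on SC, -0.76 ± 0.65 in WT on HFD, 0.16 ± 0.57 in Clock on SC and 0.07 ± 0.61 in Clock on HFD. For all 8 genes the lowest group mean was in WT on HFD, for which the share of all genes was not computed. In each of the 7 comparisons limma called 0 of the 8, where between 0% and 3.88% of all genes were called. Their differences for HFD against SC in WT ran from -1.02 ± 0.30 for Sik1, a kinase induced by cAMP, to -0.25 ± 0.16 for Klf2, a factor induced by blood flow in endothelial cells.

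Other immediate early genes had means on the same sides, with few calls. The lists overlap with the genes named above for likeness to the members. Klf2 is among the transcription factors, and Btg2, Sik1 and Ptgs2 are among the other proteins. Of 21 further transcription factors of this class, 20 had lower means on HFD in WT, with a median difference of -0.25, and limma called 0 of them (0.352% of all genes); 7 were below an unadjusted p of 0.05 (10.7% of all genes). On HFD, 17 of the 21 had higher means in Clock, with a median of 0.23, 8 were below an unadjusted p of 0.05 (13.5% of all genes), and 1 was called (1.9% of all genes), Nfil3, a repressor of clock output genes (0.64 ± 0.13, adjusted p = 0.0176). Leaving out either of WT HFD replicates 1 and 2, or replicate 3 of Clock on HFD, ended the call for Nfil3 (adjusted p at most 0.0616). Of 32 immediate early genes for other proteins, 26 had lower means on HFD in WT (median -0.13, limma called 0, and 7 were below an unadjusted p of 0.05) and 28 had higher means in Clock on HFD (median 0.16, 1 called, 10 below an unadjusted p of 0.05), to be read against the same shares of all genes. The call was Thbs1, an extracellular matrix glycoprotein (1.16 ± 0.27, adjusted p = 0.0386), which was lost on leaving out any of WT HFD replicates 1, 3 and 4 and Clock HFD replicates 1, 2 and 3 (Thbs1 adjusted p at most 0.116), with a trended robust variance (0.0886), with only the arrays compared (0.0751) and with a repeated quantile normalization (0.0602).

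In the lists for the signal that starts these genes, and for its inhibitors and partners, 1 of 12 EGFR ligands and receptors, 1 of 18 feedback inhibitors, 1 of 28 kinases and factors and 1 of 15 partners were called for Clock against WT on HFD, where 1.9% of all genes were. Averaged over diets the counts were 3, 1, 5 and 3, against 3.88% of all genes. Among 12 EGFR ligands and receptors, Egf, which encodes epidermal growth factor, was higher in Clock on HFD (0.67 ± 0.09, adjusted p = 0.000879), and averaged over diets Egf (0.52 ± 0.06) and the receptor Egfr (0.25 ± 0.05) were higher and Nrg2, a neuregulin ligand, lower (-0.26 ± 0.05). Egf was also higher on HFD averaged over genotypes (0.32 ± 0.06, adjusted p = 0.0230), a call lost without Clock HFD replicate 2 (Egf adjusted p = 0.0503). Among 18 feedback inhibitors of ERK and EGFR signalling, Dusp8, a phosphatase of stress-activated kinases, was higher in Clock on HFD (0.35 ± 0.07, adjusted p = 0.0192), a call that ended on leaving out replicate 3 of WT on HFD or either of replicates 2 and 3 of Clock on HFD (Dusp8 adjusted p at most 0.0716).

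Among 28 kinases and factors that switch immediate early genes on, 1 was called in a comparison within 1 diet or genotype, Mef2a, a muscle transcription factor, which was lower in Clock on HFD by 0.19 ± 0.05 (adjusted p = 0.0400). That call was lost on leaving out any of the 4 WT HFD or Clock HFD hearts except WT HFD replicate 4 (Mef2a adjusted p at most 0.118), with a trended robust variance (0.0719) and with only the arrays compared (0.0876). Srf itself was lower on HFD averaged over genotypes (-0.20 ± 0.04, adjusted p = 0.0258) and higher in Clock averaged over diets (0.18 ± 0.04, adjusted p = 0.0242), the adjusted p rising to at most 0.0561 when 1 of WT SC replicate 2, WT HFD replicates 1 and 2 or Clock HFD replicates 1 to 4 was left out. Rps6ka5, the kinase MSK1, was higher on HFD averaged over genotypes (0.25 ± 0.05, adjusted p = 0.0219). Among 15 corepressors and dimer partners of the members, Hdac4, a histone deacetylase that restrains MEF2, was lower in Clock on HFD by 0.69 ± 0.11 (adjusted p = 0.00296), and Ddit3, a stress-induced bZIP factor that can pair with ATF3, was higher in Clock on SC (0.42 ± 0.08, adjusted p = 0.0293), a call lost without WT SC replicate 1 or 2 or Clock SC replicate 1 or 2 (Ddit3 adjusted p at most 0.113).

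Averaged over diets, further calls in Clock against WT were Nfil3 (0.59 ± 0.09), Homer1, a synaptic scaffold protein (0.21 ± 0.05), Zfp36l1, an mRNA decay factor (0.16 ± 0.03), Dusp8 (0.26 ± 0.05) and Rxrb, a retinoid receptor that can pair with NR4A1 (0.18 ± 0.04), all higher, and Rgs2, an inhibitor of G protein signalling (-0.23 ± 0.05), and Hdac4 (-0.49 ± 0.08), both lower. The p38 pathway kinases Map2k6 (-0.26 ± 0.07), Map2k3 (0.23 ± 0.06) and Mapk12 (-0.21 ± 0.06) and Ddit3 (0.22 ± 0.06) also passed, but each lost its call in at least 9 of the 16 fits that left out 1 array.

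Markers of other cell types differed between the groups too. The mean of 8 endothelial markers ranged from -0.31 to -0.21 in WT on HFD, below its range in WT on SC (-0.07 to 0.05), Clock on SC (0.05 to 0.19) and Clock on HFD (-0.03 to 0.16). Of the 8, 3 were called higher in Clock on HFD (Cldn5 by 1.21 ± 0.17, Robo4 by 0.44 ± 0.09 and Esam by 0.39 ± 0.07) and 1 was called lower on HFD in WT (Cldn5, -0.81 ± 0.17), named after their values were seen, against 1.9% and 0.352% of all genes, and 7 and 8 of them had means in those directions. The endothelial markers also had higher means in Clock on SC for 8 of 8, with 5 below an unadjusted p of 0.05 (9.77% of all genes), a comparison in which the members split 5 and 5. Averaged over diets 5 of the 8 were called higher in Clock (Pecam1, Tek, Cldn5, Esam and Robo4, likewise named afterwards; 3.88% of all genes), and averaged over genotypes 2 were called lower on HFD (Kdr and Emcn; 1.54% of all genes). The 8 cardiomyocyte markers had means from -0.06 to -0.01 in WT on HFD and from 0.00 to 0.07 in Clock on HFD, with 0 called by limma in either single-diet genotype comparison (1 below an unadjusted p of 0.05 in each). Averaged over diets 1 of the 8 was called higher in Clock (3.88% of all genes), and averaged over genotypes 1 was called higher on HFD (1.54%). Of 6 neutrophil markers, 1 was called higher in Clock on SC (0.491% of all genes), 1 on HFD (1.9%) and 1 averaged over diets (3.88%). The 8 macrophage markers overlapped between all 4 groups, and of 7 fibroblast markers all 7 had higher means in Clock on both diets, with 0 called by limma within either diet (4 below an unadjusted p of 0.05 on SC and 2 on HFD) and 3 called higher averaged over diets (Col1a1, Lum and Gsn, likewise named after their values were seen; 3.88% of all genes). The part of the endothelial and fibroblast markers in the members' differences was not tested, and in bulk tissue fewer cells of a type and less RNA per cell cannot be told apart.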

How the data were processed

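Myocardial RNA of 16 mice (500 ng of total RNA each, biotinylated cRNA, 1 Affymetrix array per mouse, per the labels' protocols) was compared in 4 groups of 4. The authors deposited a table of log2 values for 34351 probe sets, in which every probe set has a median of 0 over the 16 arrays within 1e-06, so no signal level or background remains. Neither the log base (taken as 2), nor the sign (taken as positive for higher), nor the software or normalization method was given in the sources used here. The number of arrays limits the precision.

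Probe sets with 1 gene symbol (23521) were averaged into 22180 genes; the 1814 probe sets of several symbols and the 9016 without a listed one did not enter. Symbols were checked against RefSeq genes of GRCm38.p6, with 193 probe sets unmatched and 0 symbols changed. Genes were fitted with limma 3.58.1 in R 4.3.3 (lmFit, eBayes) as 4 group means, in 7 two-sided comparisons; the fit had 12 residual degrees of freedom and 4.16 more from the prior. Benjamini-Hochberg adjustment ran over all genes with a threshold of 0.05. Errors after ± are standard errors from limma, or SDs where so named. The script was tested on simulated data.

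The members and lists were chosen with earlier results of these data known. Named genes are the 10 members, from each list up to 4 called genes with the largest difference per comparison (others are only counted), and the 8 genes most like the members' mean. Predicted genes were left out of the search for these 8. Pair correlations used residuals from group means. Promoter windows are RefSeq's. Replicate numbers are the labels' and did not pair the samples: 3 of 24 same-numbered pairs correlated above 0.1. The labels call replicates biological. Alternatives were single probe sets, probe sets of several symbols, a trended robust variance, array weights, a repeated quantile normalization, a replicate block, a fit on only the arrays compared, and the omission of single arrays.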

Additional observations from a re-analysis of the deposited data

Results flagged for a closer look

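In 2 of the 40 sets of 4 hearts tested (10 members by 4 groups), 1 heart stood apart by a gap of more than 0.829 of the group's range, a distance that chance gives in about 1 of 20 groups, so 2 of 40 is the number chance gives. Egr1 in Clock SC replicate 1 was -0.0406, with the nearest heart of its group at 0.20 (gap of 0.836 of the range). Atf3 in WT HFD replicate 3 was -0.0706, with the nearest heart at -0.80 (gap of 0.848 of the range); this heart was also the highest of its group for all 10 members.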

How the results depend on the processing

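Of 1260 values of the members under other settings, 1206 kept direction and side of the threshold, 10 lost a call, 4 gained one and 40 changed sign, 35 of these on leaving out 1 array; no difference above 0.21 in size changed sign. The number of members called for HFD against SC in WT was 0 with a trended robust variance (Egr2 adjusted p = 0.0667) and 0 with only the arrays compared (0.175), and 0 to 2 without 1 array. For Clock against WT on HFD it was 1 with only the arrays compared (Egr2 adjusted p = 0.0549) and 1 to 2 without 1 array. For the averaged genotype difference it was 2 to 3 and for the averaged diet difference 1 to 2 without 1 array. With the replicate block, although the numbers did not pair the samples, the averaged diet count was 2 (Nr4a1 adjusted p = 0.0471), and over all genes 41 were called for diet in WT and 12 in Clock, against 78 and 20; no other count of members moved, and the block ended the calls for Thbs1 (adjusted p = 0.0501) and Mef2a (0.0840) on HFD and Ddit3 (0.0723) on SC. With array weights Atf3 in Clock against WT on SC was -0.0192, Errfi1 for diet in Clock 0.0998 and Egr1 in the interaction 0.0196. With the repeated quantile normalization Fos for diet in WT was 0.0361 and Errfi1 for diet in Clock 0.0441. Leaving out 1 array gave ranges across 0 in Clock against WT on SC for Junb (-0.13 to 0.0250), Fosb (-0.0318 to 0.16), Atf3 (-0.12 to 0.32) and Errfi1 (-0.38 to 0.0777); for diet in WT for Fos (-0.30 to 0.0155); for diet in Clock for Fos (-0.46 to 0.20), Fosb (-0.23 to 0.0933), Junb (-0.13 to 0.0996) and Errfi1 (-0.22 to 0.24); in the interaction for Egr1 (-0.13 to 0.21) and Fos (-0.33 to 0.32); in the averaged genotype difference for Nr4a3 (-0.0698 to 0.39) and Junb (-0.0159 to 0.0979); in the averaged diet difference for Fos (-0.30 to 0.0328); and for Otud1 in Clock against WT on HFD (-0.13 to 0.54). Counts over all genes were 109 for Clock against WT on SC, 422 on HFD, 78 and 20 for diet in WT and Clock, 861 and 341 for the averages. On SC the count was 59 with a trended robust variance and 38 with only the arrays compared; for diet in WT 40 and 15; for diet in Clock 8 and 7, and 38 with probe sets of several symbols, 53 with array weights and 43 with quantile normalization. Without 1 array the counts were 49 to 144 on SC, 241 to 344 on HFD, 28 to 65 and 6 to 14 for diet in WT and Clock, 648 to 1003 and 218 to 329 for the averages. The cause of these shifts was not tested. A filter on low signal could not be run because centred values hold no levels.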
